A study of Mus musculus with 36 samples.

Results

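The 6 Control libraries of reprogramming at day 5 and day 7, 3 at each day, were compared out of 36 libraries in the series. The libraries were taken by their labels, with no measured value in the rule. The study sequenced messenger RNA from mouse fibroblasts, cells on their way to induced pluripotency, induced pluripotent stem cells (iPSCs) and embryonic stem cells (ESCs), with and without a knockout of Zfp266, which codes for a KRAB zinc finger protein. The comparison asks which transcripts changed from day 5 to day 7 of factor-driven reprogramming when Zfp266 was left intact.

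Both groups were wild-type for Zfp266 and of the 129 strain. They were mouse embryonic fibroblasts (MEFs), taken at passage 2 from embryos, that carried Cas9 at Rosa26, a Nanog-GFP reporter and a doxycycline-inducible MKOS cassette coding for Myc, Klf4, Oct4 and Sox2 with mOrange. All of them received a lentivirus with a non-targeting guide RNA and then medium with doxycycline and vitamin C, for 5 or 7 days. A small number of these cells had been mixed with wild-type MEFs that lack the cassette, and mOrange-positive cells were sorted for RNA, so each library came from a sorted mixture of cells at different points of the process and could hold carried-over MEFs. The labels do not say whether the 3 replicates were separate cultures. The p-values rest on a spread between replicate libraries that was estimated over all 36 libraries and may be technical. The study calls its reprogramming samples independent without saying what was separate. In such bulk samples a change in the number of cells of a type and a change in RNA per cell cannot be told apart.

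In reprogramming, the 4 factors first silence many fibroblast genes and switch on an epithelial programme, and only later do the cells turn on their own pluripotency network. That network is built on transcription factors such as Nanog, Esrrb and Tfcp2l1, which bind each other's regulatory regions together with Oct4 and Sox2. It is accompanied by FGF4 and NODAL signals made by the cells themselves, by the DNA-modifying proteins of early embryos and by the short cell cycle and high glucose uptake of pluripotent cells.

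Total counts were 28707117 to 31842978 per library. A library with no read for a gene could still have had up to 3 reads, equal to 2.91 to 3.12 normalised counts, and such floors cover counting error only. Day 7 replicate 1 stood apart. It had 2.81% of its normalised counts in 9 rows that take up ribosomal RNA reads, among them Lars2 and CT010467.1. The other 5 libraries had 0.192% to 0.317%. It differed from day 7 replicates 2 and 3 by 44.0 and 42.3 times the variance of counting. Those replicates differed from each other by 6.02 times, and day 5 replicates by 8.04 to 11.4. These values cover all genes and include the 9 rows, so they are not a separate sign. Over 10988 genes, log2 deviations from the other replicates had an SD of 0.135 to 0.178 in the other 5 libraries. For day 7 replicate 1 the SD was 0.202. All 9 rows were DEGs higher at day 7 (as defined below) with this library and none without it. Of all DEGs described below, 78.3% remained without it, and list counts that changed without it are given both ways. Leaving out any library costs calls. There were 1014 DEGs without day 7 replicate 1, against 890 without day 7 replicate 2 and 947 without day 5 replicate 3. The 4 factors, which mark cassette expression, were high in all 6 libraries. Pou5f1, which codes for Oct4, had 47013, 43229 and 49555 normalised counts at day 5 and 43534, 43216 and 48059.8 at day 7, against a mean of 37.0 in Control MEFs. Reads of the cassette and of the native genes could not be told apart.

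A DEG was a gene with FDR < 0.05 and a log2 fold change (log2FC) beyond 1. Of 19357 genes tested, 934 were DEGs higher at day 7 (4.83%) and 210 were DEGs lower (1.08%), so 81.6% of the 1144 DEGs were higher. Taken by FDR alone the split was more even, with 2672 genes higher (13.8%) and 2118 lower (10.9%). The median log2FC of all genes tested was 0.02. Day 5 and day 7 libraries did not overlap for 92.2% of DEGs, while over all genes tested day 7 lay wholly above day 5 for 23.0% and wholly below for 21.1%. With the fold threshold placed inside the test, 137 genes passed, 97.1% of them higher.

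**Figure D1:**
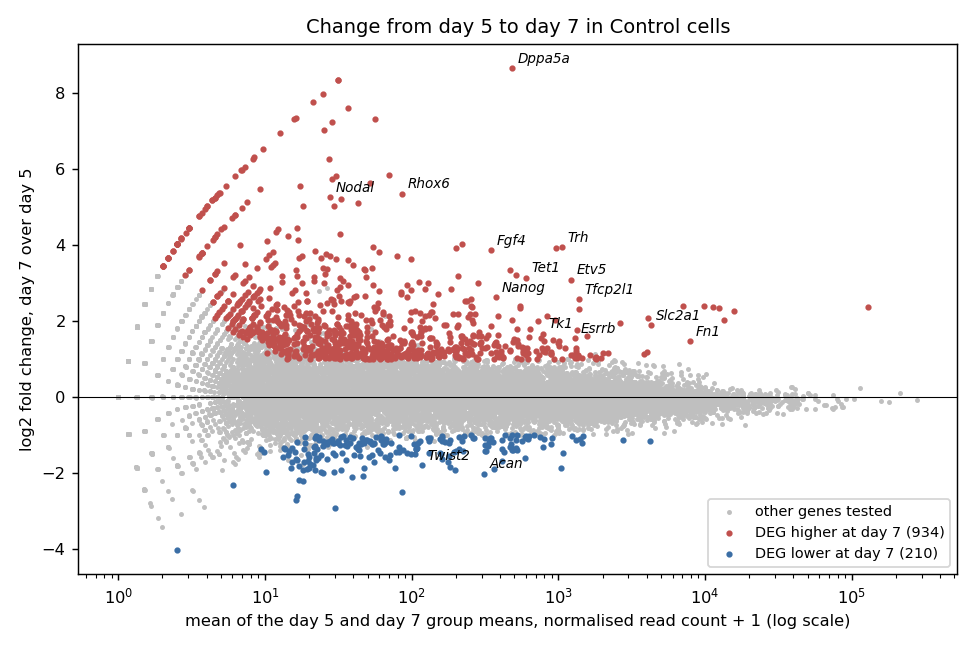
Log2 fold change from day 5 to day 7 (y axis) against the mean normalised read count plus 1 (x axis, log scale) for each gene tested, with DEGs in colour. The 934 DEGs higher at day 7 reach log2FC 8.67 for Dppa5a among the labelled genes, while the labelled DEGs lower at day 7 lie no further down than -2.01 for Acan.

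Genes that separate ESCs from MEFs were found in both directions. Among all genes tested 25.4% were ESC-associated, meaning DEGs higher in Control ESCs than in Control MEFs, and 29.9% were MEF-associated. In the whole ESC against MEF comparison, which used other libraries, these calls made up 26.0% and 29.4% of genes. ESC-associated genes were 470 of the 934 higher DEGs (50.3%, and 54.1% without day 7 replicate 1). MEF-associated genes were 263 of them (28.2%), near their share of all genes. Of the 210 lower DEGs, 89 were MEF-associated (42.4%) and 40 were ESC-associated.

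The pluripotency network rose almost throughout. Of 30 pluripotency genes, all tested, 27 were higher at FDR < 0.05, 25 of them as DEGs, and 1 was lower, with a median log2FC of 2.20 against 0.02 for all genes tested. The same counts of 27 and 1 were found without day 7 replicate 1. Fgf4, the FGF ligand made by pluripotent cells, had the lowest FDR of the whole table. It had 29.1, 59.9 and 44.8 normalised counts at day 5 and 521, 775 and 648 at day 7. Every day 7 library was far above every day 5 library, and the log2FC was 3.87 ± 0.23 (SE, FDR = 4.1e-61).

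Nanog, a homeobox factor at the core of the network, had 82.5, 106 and 125 normalised counts at day 5 and 562, 745 and 641 at day 7 (log2FC 2.64 ± 0.17, FDR = 4.7e-53). Tfcp2l1, a factor downstream of LIF and STAT3, had 349, 414 and 428 counts and then 2321, 2654 and 2139 (log2FC 2.58 ± 0.16, FDR = 2.4e-52). Esrrb, an orphan nuclear receptor, had 669, 735 and 579 counts and then 1902, 2119.5 and 1830.4 (log2FC 1.56 ± 0.11, FDR = 2.9e-39). For none of these 3 factors did the days overlap. Zfp42, also called Rex1 and a marker of naive pluripotency, had 294, 329 and 245 counts at day 5 and 1044, 1483 and 962 at day 7 (log2FC 2.01 ± 0.17). Sall4 and Sall1, zinc finger factors, rose by log2FC 1.01 ± 0.13 and 1.59 ± 0.17. Nr5a2, another nuclear receptor, Zscan10 and Klf2 rose by log2FC 1.68 ± 0.21, 1.49 ± 0.13 and 2.77 ± 0.32.

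The windows around the annotated starts of 3 of these risers are shown because they hold short motifs of the factor families in the cassette. Each is 250 bases before to 50 bases after a RefSeq start in GRCm38.p6, and capitals mark matches on either strand to an octamer (ATGCAAAT), a SOX motif (ACAATG), a KLF motif (GGGNGTGG), an AP-1 motif (TGANTCA) or a CCAAT box (CCAATNNG). The Nanog window is chr6:122707239-122707538, plus strand, that of Zfp42 is chr8:43306960-43307259, minus strand, and that of Tfcp2l1 is chr1:118627695-118627994, plus strand.
Nanog: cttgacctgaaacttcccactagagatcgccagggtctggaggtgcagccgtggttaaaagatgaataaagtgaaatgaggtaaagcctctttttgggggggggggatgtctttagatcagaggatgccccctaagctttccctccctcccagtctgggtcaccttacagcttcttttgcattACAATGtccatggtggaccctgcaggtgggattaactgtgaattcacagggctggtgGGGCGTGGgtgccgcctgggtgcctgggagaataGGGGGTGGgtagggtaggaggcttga
Zfp42: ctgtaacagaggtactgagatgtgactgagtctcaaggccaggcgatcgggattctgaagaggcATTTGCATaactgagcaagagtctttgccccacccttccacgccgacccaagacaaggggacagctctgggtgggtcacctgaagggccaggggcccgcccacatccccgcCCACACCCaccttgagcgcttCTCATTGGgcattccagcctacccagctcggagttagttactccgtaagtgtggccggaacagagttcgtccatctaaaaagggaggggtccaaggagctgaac
Tfcp2l1: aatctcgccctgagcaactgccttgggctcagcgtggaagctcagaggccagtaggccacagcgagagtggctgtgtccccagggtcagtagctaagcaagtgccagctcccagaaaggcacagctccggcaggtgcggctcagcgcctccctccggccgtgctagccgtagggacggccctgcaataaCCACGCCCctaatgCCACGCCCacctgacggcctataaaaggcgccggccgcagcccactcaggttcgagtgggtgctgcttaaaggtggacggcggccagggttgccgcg
In Nanog the capitals mark a SOX match that begins 67 bases before the start and KLF matches beginning 10 bases before it and 24 bases after it. Zfp42 has an octamer, a KLF and a CCAAT match, and Tfcp2l1 has a pair of KLF matches. Promoter windows were found for 19 of the 30 pluripotency genes, 25 windows in all. The KLF motif occurred in 48.0% of these windows, against 17.6% of all 32851 windows, 24.2% of 760 windows of higher DEGs and 21.3% of 169 windows of lower DEGs. The octamer was in 4.0%, 1.74%, 2.37% and 0.592% of the same sets, and the SOX motif in 4 of the 25 windows, 12.6%, 10.8% and 6.51%. Matches are descriptions of the letters, and binding was not measured here.

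Several other members and genes named by the rule had folds as large or larger. Dppa5a, a gene of early embryos and ESCs, had 0, 5.16 and 2.08 normalised counts at day 5 and 462, 1627 and 815 at day 7 (log2FC 8.67 ± 0.77, FDR = 8.9e-27). Dppa5b and Dppa5c, named with their values in view, had equal means, 0 at day 5 and 61.2 counts at day 7. Reads may have been shared among these genes, so their levels are uncertain. Tdgf1, a co-receptor for NODAL, had 39.8, 107 and 203 counts and then 873, 2466 and 2038 (log2FC 3.94 ± 0.69), and its near-identical copy Tdgf1-ps1 had a log2FC of 3.93 ± 0.55. Reads of this pair may have been split between them, so their levels are uncertain. Tcl1, an activator of AKT, had 8.74, 46.5 and 20.8 counts and then 371, 442 and 431 (log2FC 4.04 ± 0.35). Prdm14 had no read at day 5 and 28.4, 66.5 and 47.3 counts at day 7. This was at least 46.8-fold higher, against a floor of 3 counts over the 3 day 5 libraries. Dppa3 likewise had no read at day 5 and was at least 23.0-fold higher at day 7. With both genes set at these bounds the median log2FC of the list was 2.20. Dppa2 had 1 read over the 3 day 5 libraries and 210 at day 7, a ratio of 211 with a 95% counting interval (exact Clopper-Pearson) of 37.4 to 8358. Platr15, a transcript expressed in pluripotent cells, had 2 reads and then 323, a ratio of 162 with an interval of 44.5 to 1343. Among other genes with the largest folds, the SMAD partner Foxh1 rose by log2FC 3.96 ± 0.41, Triml2 by 5.63 ± 0.65 and Dmgdh, a mitochondrial dehydrogenase of choline breakdown, by 5.84 ± 0.68.

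**Figure D2:**
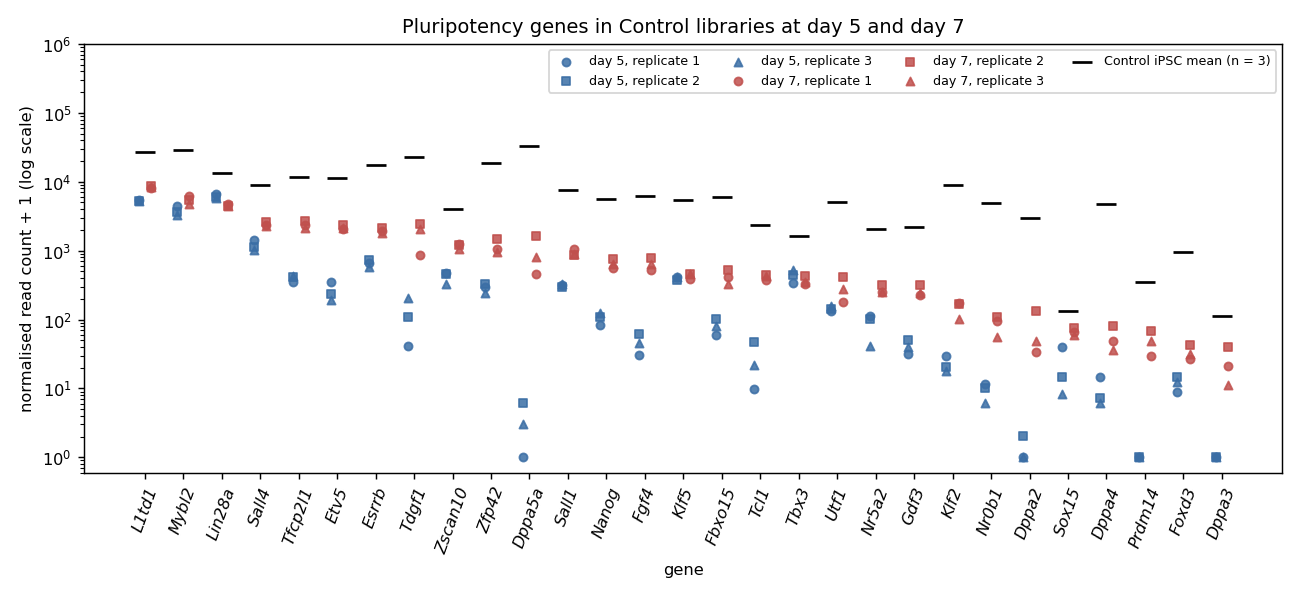
Normalised read count plus 1 (y axis, log scale) of the pluripotency genes shown (x axis) in each of the 3 day 5 and 3 day 7 Control libraries, with a black bar at the Control iPSC mean. All day 7 points lie above all day 5 points for every gene shown but Klf5, Tbx3 and Lin28a, and the day 7 means of the genes shown are below the iPSC bar, at most 50.5% of it.

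The members that did not rise were Klf5, Tbx3 and Lin28a. Klf5 had 407, 372 and 417 normalised counts at day 5 and 393, 452 and 451 at day 7 (FDR = 0.49). Tbx3 had 337, 447 and 526 counts and then 332, 424 and 349.8 (FDR = 0.42). Their libraries overlapped between the days. Lin28a, which codes for an RNA-binding protein that blocks let-7 maturation, was lower at day 7, with 6662, 6009 and 5761 counts and then 4723, 4377 and 4509.6 (log2FC -0.44 ± 0.11, FDR = 5.2e-04).

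At day 7 the network was still far from its level in established iPSCs. Day 7 means were 1.11% to 50.5% of the Control iPSC means over the 30 genes, with a median of 11.7%, against a median of 1.84% at day 5. In 12 genes the day 7 mean was under 10% of the iPSC mean, and in 17 it was 10% to 50%. Dppa4 stood at 1.11%, Klf2 at 1.64%, Nanog at 11.7% and L1td1, which codes for an RNA-binding protein, at 30.7%.

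Of 20 FGF and ERK feedback genes, 9 were higher and none lower, with a median log2FC of 0.77 (7 higher without day 7 replicate 1). Fgf3, an FGF ligand gene outside the list and named with its values in view, was lower, with 768, 693 and 752 normalised counts at day 5 and 184, 325 and 375 at day 7 (log2FC -1.32 ± 0.28, FDR = 3.1e-05). Etv5, an ETS factor induced by ERK and also counted as a pluripotency gene, had 349.5, 231 and 188 normalised counts at day 5 and 2053, 2362 and 2151 at day 7 (log2FC 3.09 ± 0.23, FDR = 5.0e-39). Etv1, a relative of Etv5, had 23.3, 57.8 and 40.6 counts and then 273, 465 and 379 (log2FC 3.20 ± 0.43). Dusp6, the phosphatase that switches ERK off, had 72.8, 61.9 and 75.0 counts and then 306, 529.6 and 379.6 (log2FC 2.54 ± 0.42). In each of these genes all day 7 libraries were above all day 5 libraries. The feedback inhibitors Spry2 and Spred1 rose by log2FC 0.92 ± 0.17 and 0.76 ± 0.21, and the receptor Fgfr1 by 0.63 ± 0.14.

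Of 25 BMP and TGF-beta genes, 10 were higher (40.0%) and none lower, with a median log2FC of 0.18. Without day 7 replicate 1, 9 were higher and the median was 0.38. Nodal had 1.94, 1.03 and 1.04 normalised counts at day 5 and 54.8, 55.4 and 46.3 at day 7 (log2FC 5.27 ± 0.74, FDR = 1.0e-10). Lefty2, a secreted inhibitor and target of NODAL, had 776, 758 and 767 counts and then 1365, 2543 and 3109 (log2FC 1.61 ± 0.37). Bmp4 had 15.5, 18.6 and 29.1 counts and then 58.8, 119.8 and 48.4 (log2FC 1.85 ± 0.41). Day 7 replicates 2 and 3 were well above replicate 1 for Lefty2, yet all of them were above day 5. Of 21 Wnt genes tested, 3 were higher (14.3%), near the 13.8% of all genes tested, and 1 was lower. Tcf7l1, a repressor of Wnt targets in ESCs, rose by log2FC 1.27 ± 0.15 and the ligand Wnt4 fell by 0.77 on the log2 scale. Of 14 LIF and STAT3 genes, 1 was higher, Tfcp2l1, and 1 was lower, the oncostatin M receptor Osmr (log2FC -0.72 ± 0.16).

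Regulators of DNA methylation and Polycomb repression were mostly higher at day 7. Of 20 genes, 14 were higher and 2 lower, with a median log2FC of 0.39 (11 and 1 without day 7 replicate 1). Tet1, an enzyme that oxidises methylated cytosine, had 109.7, 90.8 and 168 normalised counts at day 5 and 909.8, 1445 and 895 at day 7 (log2FC 3.14 ± 0.19, FDR = 8.0e-55). Dnmt3l, the cofactor of de novo methylation, had 1.94, 1.03 and 2.08 counts and then 39.6, 126 and 22.6 (log2FC 5.22 ± 0.79). Suz12, a core subunit of Polycomb complex PRC2, had 1784, 1575 and 1600.0 counts and then 3071, 3576 and 3013 (log2FC 0.96 ± 0.06, FDR = 7.9e-48). No day 7 library of these 3 genes was as low as any day 5 library. Its partners Jarid2 and Mtf2 rose by log2FC 0.92 ± 0.11 and 0.52 ± 0.08, and Ezh2 by 0.32 ± 0.07. Uhrf1 and Dnmt1, which copy methylation at replication, rose by 0.90 ± 0.12 and 0.59 ± 0.14. Tdg, a glycosylase that removes oxidised cytosine, was lower (log2FC -0.29 ± 0.07). Outside the list, Rnf2, which codes for the catalytic RING protein of PRC1, was among the 15 higher DEGs with the lowest FDR (log2FC 1.03 ± 0.08), as was the nucleosome-binding protein gene Hmgn2 (1.08 ± 0.07).

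Of 30 cell cycle and replication genes, 18 were higher and 1 lower (15 and 1 without day 7 replicate 1), with a median log2FC of 0.35, and 2 were DEGs. Tk1, thymidine kinase, had 416, 377 and 326 normalised counts at day 5 and 1205, 1242 and 1127 at day 7 (log2FC 1.67 ± 0.11, FDR = 6.6e-52). Ccne1, cyclin E1, had 266, 267 and 226 counts and then 437, 654 and 571 (log2FC 1.13 ± 0.15). Ccnb2, cyclin B2, had 647, 623 and 537 counts and then 1064, 1145 and 1026 (log2FC 0.84 ± 0.08). The days did not overlap for any of the 3. The helicase genes Mcm2, Mcm3, Mcm4, Mcm5 and Mcm7 rose by log2FC 0.50 to 0.72, and Top2a by 0.58 ± 0.08. Ccnd2, cyclin D2, was lower (log2FC -0.70 ± 0.23, FDR = 0.012). Its call was lost without day 5 replicate 1 or day 7 replicate 3. Of the 21 p53 and cell cycle inhibitor genes, 2 were higher and 2 lower (9.52% each, against 13.8% and 10.9% of all genes tested). The CDK inhibitor gene Cdkn1b rose by log2FC 1.28 ± 0.23, and Ccng1, a p53 target, fell by 0.57 on the log2 scale.

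The Ccnb2 window (chr9:70421505-70421804, minus strand, marked as above) is shown for its CCAAT box, an element known from G2 and mitosis promoters.
Ccnb2: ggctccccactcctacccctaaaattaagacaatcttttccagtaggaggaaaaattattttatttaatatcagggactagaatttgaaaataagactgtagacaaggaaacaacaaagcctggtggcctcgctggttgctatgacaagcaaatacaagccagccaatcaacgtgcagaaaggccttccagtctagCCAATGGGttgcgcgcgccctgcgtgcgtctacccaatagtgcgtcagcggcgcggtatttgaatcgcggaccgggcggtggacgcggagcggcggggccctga
The marked match begins 54 bases before the start. The full pattern CCAATNNG was required, so the shorter CCAAT elsewhere in this window is left unmarked. CCAAT matches were in 51.9% of the 27 windows of the cell cycle list, found for 24 of its 30 genes, against 4598 of all 32851 windows, 14.5% of those of higher DEGs and 14.8% of those of lower DEGs. The AP-1 motif, searched as a somatic contrast, was in none of these 27 windows, in 7.81% of all windows, in 8.29% of those of higher DEGs and in 10.7% of those of lower DEGs.

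Of 21 glycolysis genes, 10 were higher (47.6%) and 3 lower (14.3%), with a median log2FC of 0.25. Without day 7 replicate 1 the counts were 8 and 3. Slc2a1, the glucose transporter GLUT1, had 2055, 1662 and 1655 normalised counts at day 5 and 7512, 6251 and 6307 at day 7 (log2FC 1.90 ± 0.17, FDR = 2.8e-25). Slc16a3, the lactate exporter MCT4, had 368, 214 and 346 counts and then 1533, 1187 and 1339.6 (log2FC 2.13 ± 0.23). Pdk1, a pyruvate dehydrogenase kinase gene, had 597, 606 and 637 counts and then 2239.6, 2214 and 1765 (log2FC 1.76 ± 0.14, FDR = 5.4e-34). All day 7 libraries were above all day 5 libraries in these genes. Aldoc and the transporter Slc2a3 rose by log2FC 2.84 ± 0.36 and 1.18 ± 0.11. Among the lower members were Ldha, lactate dehydrogenase A (log2FC -0.32 ± 0.09), and Pfkp (-0.39 ± 0.10). Of 24 respiratory chain genes, 13 were lower (11 without day 7 replicate 1) and 1 higher (median log2FC -0.20). The complex III genes Uqcrc2 and Uqcrfs1 both had a log2FC of -0.32 ± 0.05, and Cox7a1, a tissue-restricted subunit, had 1.48 ± 0.39. With a replicate block on the compared groups alone the Cox7a1 call was lost (FDR = 0.085). Of the 20 cholesterol synthesis genes, 1 was lower (none without day 7 replicate 2) and none was higher (1 without day 5 replicate 1). Among 19 amino acid response genes, 3 were higher and 3 lower, 15.8% each (1 and 1 without day 7 replicate 1).

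Lists of other early lineages were read against the 13.8% of all genes that were higher. Of 13 trophoblast genes tested, 6 were higher (5 without day 7 replicate 1) and none lower (median log2FC 0.58). Rhox6 had 4.85, 5.16 and 2.08 normalised counts at day 5 and 218, 218 and 60.7 at day 7 (log2FC 5.36 ± 0.69), and its family member Rhox9 rose by 5.11 ± 0.74. These homeobox genes are close copies, so reads may have been shared. Elf5, a factor of trophoblast stem cells, had 9.71, 15.5 and 13.5 counts and then 69.0, 97.7 and 77.2 (log2FC 2.66 ± 0.41). It was at 0 to 0.33 mean counts in iPSCs and ESCs. Otx2, a factor of the primed epiblast, had 2 reads at day 5 and 155 at day 7, a ratio of 77.7 with an interval of 21.2 to 648. Tested primed and lineage genes were 11, of which 2 were higher (18.2%) and none lower (1 without day 7 replicate 1). Of 18 germline genes tested, 3 were higher (16.7%) and 1 lower (5 and none without that library), a share near that of all genes. Piwil2, a PIWI protein gene, had 195, 251 and 210.3 counts and then 596, 669 and 411 (log2FC 1.35 ± 0.24), and Tex19.1 rose by 1.84 ± 0.36. Of 12 two-cell-like genes, 2 were higher (16.7%) and none lower (1 without that library), again near that of all genes. Interferon response genes were higher in 7 of 22 cases (6 without day 7 replicate 1) and lower in none (median log2FC 0.72). Isg15 and Oas2 rose by log2FC 2.59 ± 0.51 and 3.20 ± 0.65 from 1.04 to 11.4 counts at day 5.

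Markers of cell types that a sort could carry over were checked. Of 9 endothelial genes tested, 2 were higher. Tie1, a receptor tyrosine kinase, had 96.1, 99.1 and 102 normalised counts at day 5 and 886, 1064 and 815 at day 7 (log2FC 3.22 ± 0.21, FDR = 6.9e-50), against 52.4 in Control iPSCs. Pecam1, which ESCs also express, rose by log2FC 1.72 ± 0.30. Cdh5, which defines endothelium, was at 0 to 4.12 counts in the 6 libraries. Of 6 neural crest and glial markers tested, 5 were higher (83.3%), all 5 as DEGs, with a median log2FC of 1.49. Without day 7 replicate 1, 3 were higher. The summed level of the list was 2272 to 2661 counts at day 5 and 2512 to 2617 at day 7, against 254 in MEFs. Erbb3, a receptor gene that epithelia also express, made up most of it, with 2604, 2135 and 2183 counts at day 5, and did not pass. The sum therefore does not show the change of the other members. Of 5 macrophage and blood markers tested, 1 was higher, the lysosomal gene Cd68 (log2FC 1.00 ± 0.28). Of 5 muscle markers tested, 2 were higher (1 without day 7 replicate 1), and their summed level was 178 to 251 counts at day 5 and 230 to 443 at day 7, against a mean of 6179 in MEFs. The part of other cells in these changes was not tested.

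None of the 4 factor genes passed (median log2FC -0.41), although Myc, Sox2 and Klf4 were each lower in all 3 day 7 libraries than in all day 5 libraries. Sox2 passed as lower with TMM size factors, and all 3 passed in the fit of the 6 compared libraries alone. Klf4 had 33320.5, 25344 and 31207 normalised counts and then 23314, 19396 and 24234 (FDR = 0.070). Of 26 epithelial genes, 6 were higher and 1 lower, or 4 and 1 without day 7 replicate 1, with a median log2FC of 0.38. In 16 of the 26 all day 7 libraries lay above all day 5 libraries, and in 5 they lay below. Over all genes tested these shares were 23.0% and 21.1%. The summed level of the list was lower, with 170806 to 184126 counts at day 5 and 151307 to 166665 at day 7. Cdh1, E-cadherin, had 18223, 17046 and 16899 counts at day 5 and 17869.8, 14927 and 15783 at day 7, and did not pass. These values overlapped, and the MEF mean was 4.32. Krt18, a keratin of simple epithelia, had 130.1, 169 and 143 counts and then 458, 616 and 548 (log2FC 1.88 ± 0.52). The epithelial regulator Grhl2 and the vesicle GTPase gene Rab25 rose by log2FC 1.31 ± 0.35 and 1.95 ± 0.41.

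Fibroblast genes did not move as a block. Of 22 mesenchymal transcription factors, 3 were higher (13.6%) and 4 lower (18.2%), or 3 and 2 without day 7 replicate 1. Over all genes tested these shares were 13.8% and 10.9%. Twist2, a bHLH factor of dermal and skeletal mesenchyme, had 183, 185 and 173 normalised counts at day 5 and 63.9, 39.3 and 52.5 at day 7 (log2FC -1.80 ± 0.18, FDR = 6.1e-21). Foxf2 had 113, 87.7 and 115 counts and then 26.4, 34.2 and 48.4 (log2FC -1.53 ± 0.26). Neither gene overlapped between the days. Gm29100, which shares positions with Twist2 on the other strand and was named with its values in view, had means of 143 and 25.4 counts (log2FC -2.50 ± 0.25), and reads of the pair cannot be told apart without strand. Snai1, a repressor of E-cadherin, was higher, with 116, 147 and 149 counts and then 223, 206 and 226 (log2FC 0.67 ± 0.18). Among 27 collagen and matrix genes, 8 were higher and 2 lower, or 4 and 2 without day 7 replicate 1. Fn1, fibronectin, had 4341, 3130.4 and 4982 counts and then 11913, 11978 and 10879 (log2FC 1.48 ± 0.22, FDR = 2.1e-09), and Tnc, tenascin C, rose by 1.42 ± 0.35. Fbn1, fibrillin 1, was lower, with 22532, 20109 and 27393 counts and then 12826, 13642 and 15833 (log2FC -0.73 ± 0.19), as was Fbln2 (-0.55 ± 0.10). Of 23 fibroblast surface and secreted genes tested, 7 were higher and 1 lower, or 4 and 1 without that library. Serpinf1 and Pdgfrb rose by log2FC 1.55 ± 0.44 and 1.09 ± 0.30, and Dcn, decorin, fell by 0.72 on the log2 scale. The summed level of this list was 19846 to 20176 counts at day 5 and 16456 to 17138 at day 7, against 157133 in MEFs. Of 20 contractile actin genes, 5 were higher and 2 lower. Cnn2 rose by 1.06 ± 0.28 and Tagln2 fell by 0.43 on the log2 scale. The 12 AP-1 factors had 1 higher member, Maff, and none lower. Of 12 chemokines and interleukins tested, 1 was lower, Ccl7 (log2FC -0.56 ± 0.15), and none was higher. Of 23 imprinted genes, 4 were higher (17.4%) and 3 lower (13.0%), shares near those of all genes tested. Without day 7 replicate 1 the counts were 2 and 3. Mest fell by 0.67 on the log2 scale.

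**Figure D3:**
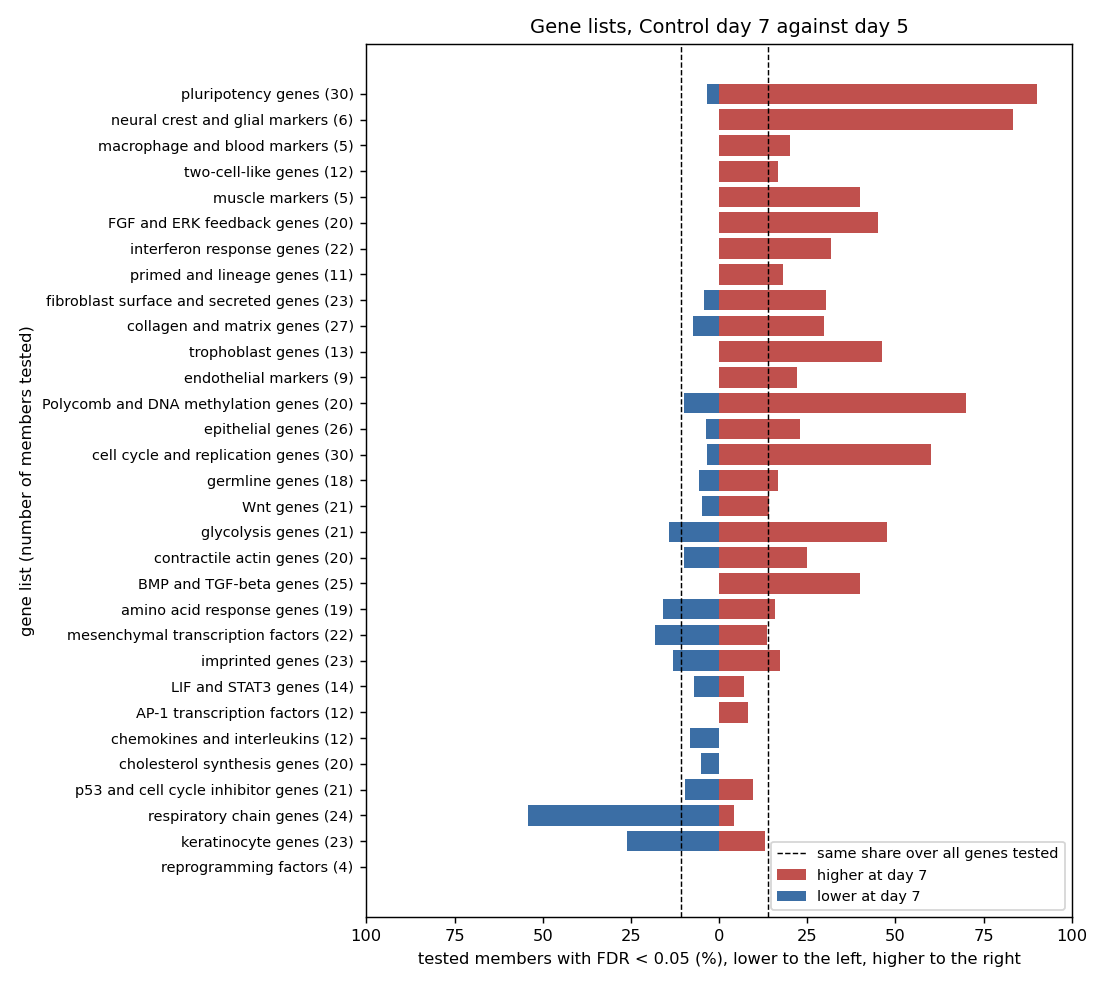
Share of the tested members of each gene list that passed FDR < 0.05, higher to the right and lower to the left (x axis, %), with dashed lines at the shares over all genes tested (13.8% and 10.9%). Pluripotency genes reach 90.0% higher and respiratory chain genes 54.2% lower; lists near the dashed lines do not stand apart from all genes.

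Genes of stratified epithelium, which these cells switch on for a time, were partly lower. Of 23 keratinocyte genes tested, 6 were lower and 3 higher (median log2FC -0.28), and 6 and 3 also without day 7 replicate 1. Krt16 had 7559.8, 6832 and 6419.6 normalised counts at day 5 and 2777, 4389 and 3687 at day 7 (log2FC -0.94 ± 0.23), against 2.95 in MEFs and 2.76 in iPSCs. Dsg1a, a desmosomal cadherin, had 1009.6, 1066 and 1155 counts and then 641, 574 and 627 (log2FC -0.81 ± 0.15). Sprr1b, a cornified envelope protein gene, fell by 1.20 on the log2 scale. Lgals7 and Dmkn were higher (log2FC 0.54 ± 0.15 and 0.77 ± 0.20).

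The lower DEGs with the lowest FDR were of mixed function. Fam174b, a membrane protein gene, had 685, 652 and 649 normalised counts at day 5 and 281, 249 and 275 at day 7 (log2FC -1.30 ± 0.12, FDR = 1.1e-23). Camk4, a calcium-dependent kinase, had 971, 863 and 824 counts and then 301, 287 and 283 (log2FC -1.61 ± 0.15, FDR = 1.4e-22). Aadac, a lipid-processing esterase, had 1081, 1146 and 1108 counts and then 457, 442 and 443 (log2FC -1.31 ± 0.14, FDR = 7.3e-19). The spread within each day was small beside these gaps. Fam174b, Camk4 and Aadac had means of 39.2, 4.44 and 6.12 counts in iPSCs. Rhof, Sh3rf3, Dpy19l3, Plb1, Plekhh2, Abhd14b, Tlx3, Ptger3 and Ptk6 had log2FC from -1.43 to -1.003. By fold, among lower DEGs with a mean of at least 50 counts, no overlap and no clone name, Acan, the cartilage proteoglycan aggrecan, led with 755, 338 and 395 counts and then 133, 112 and 124 (log2FC -2.01 ± 0.51). Onecut3, Tacr1, Ush1g, Fmnl1 and Rpe65 followed with log2FC of -1.91 to -1.72, and Tmie and Vash2 had -1.71 ± 0.22 and -1.67 ± 0.21. Among the higher DEGs with the lowest FDR not yet described, Trh, thyrotropin-releasing hormone, had 157, 133 and 96.8 counts and then 1570.1, 2429.7 and 1966 (log2FC 3.94 ± 0.26). Sept1, a septin gene, rose by 3.34 ± 0.22, Ranbp17, a nuclear transport receptor gene, by 2.54 ± 0.16, and Amt, of the glycine cleavage system, by 1.94 ± 0.13.

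Many of the genes that rose from day 5 to day 7 had been lower at day 3 than in MEFs. In the comparison of Control day 3 with Control MEFs, which shares no library with the one described here, 25.4% of genes tested were DEGs lower at day 3. They made up 526 of the 934 DEGs higher at day 7 (56.3%) and 26 of the 210 lower ones (12.4%). Over the genes tested between day 5 and day 7 their share was 25.8%. They included 249 of the 263 MEF-associated risers (94.7%). The MEF-associated call and the day 3 call use the same Control MEF libraries, so a high share is in part built in. The share among all MEF-associated genes was not computed. Dusp6 began in MEFs at a mean of 9890.3 normalised counts, was at 91.3 by day 3, 69.9 ± 6.98 (SD, n = 3) at day 5, 405 ± 114 (SD, n = 3) at day 7 and 1914 in ESCs. Fn1 followed the same order, from 219291 counts in MEFs to 5736 by day 3, then 4151 and 11590.1, with 29387 in ESCs.

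**Figure D4:**
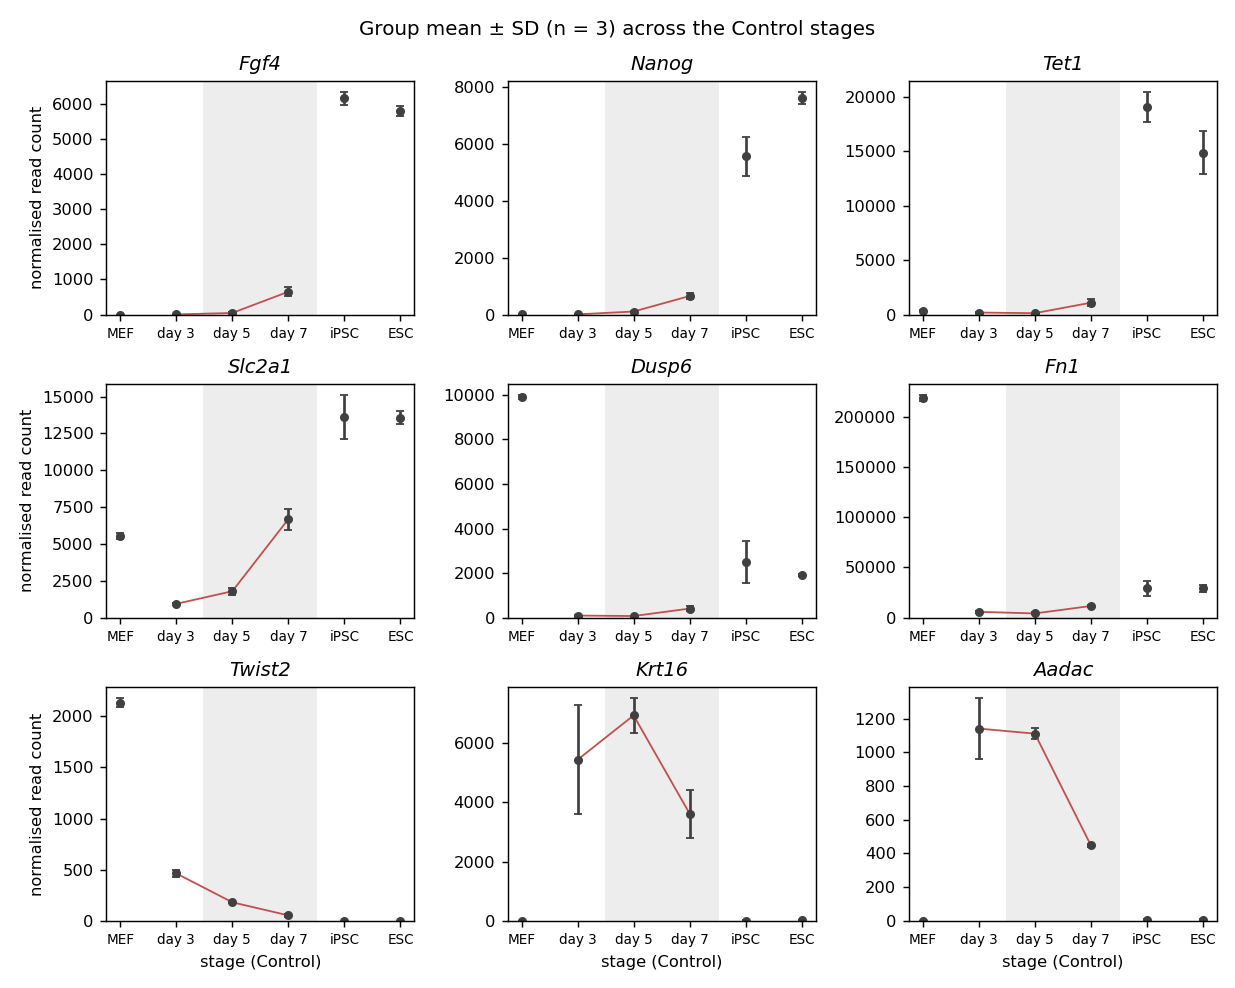
Normalised read count (y axis, from 0) of 9 genes across the Control stages (x axis) as mean ± SD of 3 libraries, with day 5 and day 7 shaded. Fgf4 and Nanog stand low in MEFs and rise at day 7, Dusp6 and Fn1 fall from MEFs and rise again, Twist2 falls through all reprogramming days, and Krt16 and Aadac are high only at the reprogramming days among the stages plotted.

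The interval from day 3 to day 5 differed from that from day 5 to day 7. Both changes share the day 5 libraries, so a high or low day 5 value moves them in opposite directions. In the test of the later change minus the earlier one, 493 of 18110 genes (2.72%) were more positive and 546 (3.01%) more negative past the same thresholds. Leaving out day 5 replicate 2 or replicate 3 gave 676 and 681 genes in place of 1039. Tet1 had 149, 170.0 and 215 normalised counts at day 3, and its log2FC was -0.54 from day 3 to day 5 and 3.14 from day 5 to day 7 (difference 3.68 ± 0.35, FDR = 1.5e-22). Ranbp17 had -0.08 and then 2.54 (difference 2.62 ± 0.31), and Zdbf2, an imprinted gene, -1.87 and then 0.42 (2.29 ± 0.27). Tmem64 and the cohesin cofactor gene Pds5b had differences of 1.82 ± 0.21 and 1.01 ± 0.12. In the other direction were genes whose change was more positive from day 3 to day 5. Misp, a gene of the mitotic spindle and cell cortex, had a log2FC of 3.01 and then 0.54 (difference -2.46 ± 0.19), and Fermt3, kindlin 3, 1.997 and then -0.44 (-2.43 ± 0.19). S100a14, Scnn1b, an epithelial sodium channel subunit gene, and Vsig8 had differences of -2.90 ± 0.24, -2.68 ± 0.24 and -3.37 ± 0.33. Nanog had 4.35 and then 2.64 (difference -1.71 ± 0.47, FDR = 0.0045) and Fgf4 4.53 and then 3.87 (-0.66 ± 0.72, FDR = 0.63).

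The same interval in Zfp266 knockout (KO) cells, populations treated alike but with a Zfp266 guide, shares no library with the Control interval. Zfp266 itself had 1266 to 1520 normalised counts in the Control day 5 libraries, 1432 to 1535 at day 7, and 1507 to 1707 and 1501 to 1557 in the KO ones. Edits of the gene need not lower its transcript, so this level does not check the KO labels. In MEFs given the Zfp266 guide, the study reported a high rate of out-of-frame edits of the gene. From day 5 to day 7 in KO cells 8.84% of 21436 genes were DEGs higher and 5.34% DEGs lower. Of the 934 Control DEGs that were higher, 713 were also higher DEGs in KO cells (76.3%, and 37.6% of the 1896 KO ones). Of the 210 that were lower, 177 were also lower in KO cells (84.3%, and 15.5% of the 1144 KO ones). In each direction 1 Control DEG was an opposite DEG in KO cells.

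The size of the change differed between the genotypes for some genes. In the test of the KO change minus the Control change, 189 of 15200 genes (1.24%) were more positive in KO cells and 74 (0.487%) more negative. Leaving out KO day 7 replicate 2 gave 162 genes in place of 263. Within the pluripotency list 6 genes were more positive in KO cells, among them Foxd3, Utf1, Tbx3, Dppa4 and Klf5, and 2 were more negative. Klf5, which did not pass the test in Control cells, had 371, 424 and 410.0 normalised counts in KO cells at day 5 and 1007, 1247 and 1086 at day 7 (difference 1.36 ± 0.15, FDR = 1.6e-15). Utf1, a chromatin protein gene of pluripotent cells, rose by log2FC 1.03 ± 0.26 in Control cells and 3.67 in KO cells (difference 2.64 ± 0.37), and its Control call was lost without day 7 replicate 2. Tcl1 and Fgf4 were the more negative ones, with differences of -2.31 ± 0.46 and -1.14 ± 0.30. Both were higher at day 5 in KO cells, with means of 271 and 289 counts against 25.3 and 44.6 in Control cells. Nanog, Esrrb, Tfcp2l1 and Zfp42 had differences of -0.52, -0.02, 0.20 and 0.39 that did not pass. Genes named for the lowest FDR of the difference also included Pfkm, a phosphofructokinase gene, with 602, 517 and 494 counts and then 621, 552 and 516 in Control cells and means of 336 and 1163 in KO cells (difference 1.72 ± 0.18). Jarid2 had a log2FC of 0.92 in Control cells and 2.13 in KO cells (difference 1.21 ± 0.15), and Apoe, an apolipoprotein gene, 2.002 and 4.38 (2.38 ± 0.32). Ptger3, a prostaglandin receptor gene, fell in both, with log2FC of -1.15 and -2.49 (difference -1.35 ± 0.27). Pdzd4 was more positive in KO cells, and Trabd2b, Gucy2e, Hecw1 and Ogfrl1 were more negative.

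**Figure D5:**
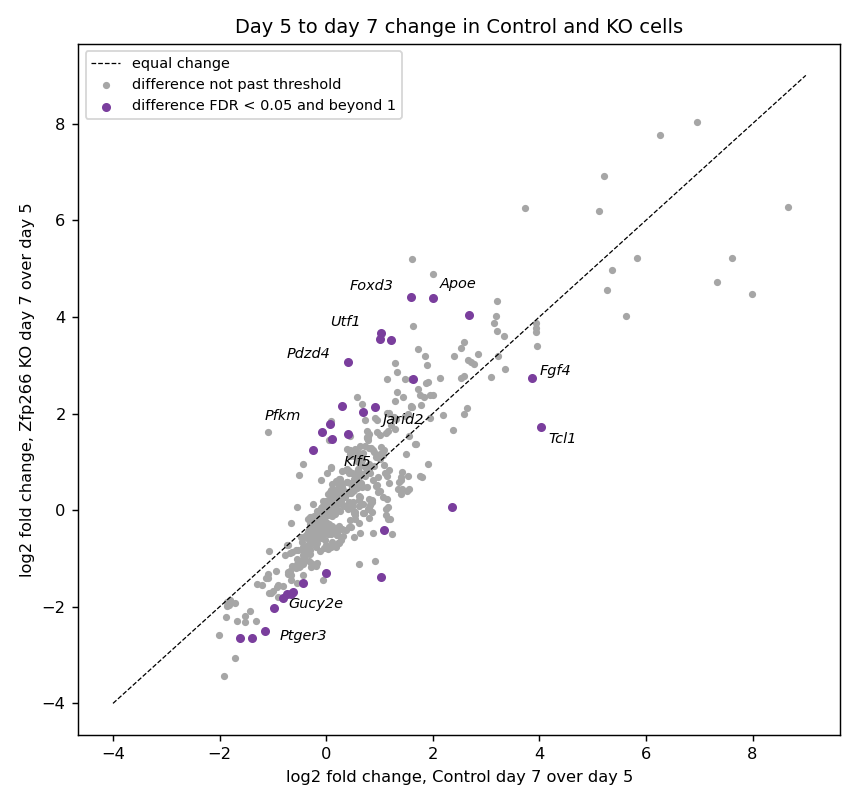
Log2 fold change from day 5 to day 7 in KO cells (y axis) against Control cells (x axis) for the listed and named genes with a mean above 10 counts at day 7 in either, the dashed line marking equal change and colour the genes whose difference passed FDR < 0.05 and 1 on the log2 scale. Utf1, Klf5 and Pfkm lie above the line, Tcl1 and Fgf4 below it at positive changes, and Ptger3 and Gucy2e below it at negative ones.

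Several of these genes share exonic positions with a gene on the other strand in the annotation, among them Tk1, Slc2a1, Fn1, Tnc, Suz12, Dnmt3l, Sall4, Twist2, Rhof, Camk4, Sept1 and Rnf2. Whether the counting used strand was not given in the sources used here, so reads of such a partner cannot be told apart from theirs.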

How the data were processed

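Bulk messenger RNA libraries were made with a stranded kit and sequenced as single-end reads. The deposited table holds raw counts per gene: the authors trimmed adapters with Cutadapt, merged runs, aligned the reads with STAR (build GRCm38) and summed them per gene with Rsubread (versions not given in the sources used here). The authors' normalised and log tables and their fold change tables for KO against wild-type cells, with p-values, were not used here. The study corrected another matrix for library preparation date, which the labels do not give, so dates and groups cannot be told apart.

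Groups were taken from the sample titles, with wild-type cells called Control. DESeq2 1.42.0 (R 4.3.3) was fitted to all 36 libraries with stage and genotype merged into 1 factor of 12 levels, median-ratio size factors, default independent filtering and the Wald test, without shrinkage. FDR is the Benjamini-Hochberg adjusted p over all genes tested. Normalised counts are counts over the size factor. The difference between intervals and between genotypes was tested as a contrast of the same fit. On simulated counts of the 21442 genes for this comparison, 193 of 200 changed genes were recovered with 3 false calls. The changed genes were not of low count, and their set changes were larger than the DEG threshold. Counts were drawn from the fitted spread. Recovery of low-count genes and of changes near the threshold was not tested. Gene positions came from GENCODE M21 (21417 of 21442 genes matched) and promoter windows from RefSeq for GRCm38.p6. The alternatives were edgeR 4.0.16 with TMM, other size factors and filters, only the compared groups, a replicate block, the fold threshold inside the test, FDR alone, and each library left out.

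The comparison, the gene lists and the rule for named genes were chosen with earlier results of these data known. Named outside the lists were the 15 DEGs per direction with the lowest FDR and the 10 with the largest fold, with a mean of at least 50 counts, no overlap between the days and a gene symbol that is not a clone name, and the 5 per direction with the lowest FDR in each test of a difference. The ribosomal RNA-linked rows, among them CT010467.1 and Lars2, were picked with their values in view, and Zfp266 is the targeted gene. Some genes that the lists or this rule would name are not reported here, though the counts include them.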

Additional observations from a re-analysis of the deposited data

Results flagged for a closer look

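The change from day 5 to day 7 differed between KO and Control cells in 263 genes by the test of the difference itself. The KO change minus the Control change was 1.72 on the log2 scale for Pfkm, 1.36 for Klf5, 1.21 for Jarid2, 2.66 for Pdzd4 and 2.38 for Apoe. It was -1.06 for Trabd2b, -1.04 for Gucy2e, -1.06 for Hecw1, -1.08 for Ogfrl1 and -1.35 for Ptger3. Groups of 3 libraries are too small for the check of single far-off samples.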

How the results depend on the processing

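The 1144 DEGs became 137 with the fold threshold inside the test and 4790 by FDR alone, and the other alternatives stayed within 1.5 times of 1144. The share of DEGs that were higher, 81.6%, was 78.26% with TMM size factors, 77.16% in edgeR, 78.13% for genes with a mean of at least 10 normalised counts, 77.35% with only the compared groups, 97.08% with the threshold inside the test and 55.78% by FDR alone. The share of ESC-associated genes among higher DEGs was 84.96% with the threshold inside the test and 42.14% by FDR alone, and that of MEF-associated genes among lower DEGs was 75.0% with the threshold inside the test. The 263 genes that differed between the genotypes were 156 in edgeR and 1 with the threshold inside the test, and the 1039 that differed between the intervals were 47 with that threshold. The cause of these shifts was not tested beyond the stricter or looser thresholds themselves.

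Leaving out 1 library at a time gave 890 to 1138 DEGs, 162 to 356 genes differing between the genotypes and 676 to 1015 between the intervals. The share of DEGs higher ranged from 78.98% to 82.89%, that of ESC-associated genes from 49.68% to 54.48% and that of MEF-associated genes from 42.29% to 48.02%. The summed calls over the gene lists, 210, ranged from 165 to 189.

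With replicate number as a replicate block there were 1151 DEGs over 36 libraries and 815 over the 6 compared, 76.56% of the latter higher. The block gave 290 and, with only the compared groups, 399 genes differing between the genotypes, and 1031 between the intervals. Same-numbered libraries of day 5 and day 7 had deviations correlated at 0.24, 0.09 and 0.20 across 17232 genes, each best with its own number, a hint from the data and not from the design. With 3 libraries a group and no read at day 5 in some genes, depth limits the folds of such genes to bounds. The count for named genes leaves out the fold threshold inside the test. Of 156 named genes, 148 stayed on the same side of FDR < 0.05 in every other alternative that gave an FDR. None changed direction while called.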
